A study of Mus musculus with 6 samples.

Results

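The RNA of isolated WT pancreatic islets was described from 3 libraries, all those labelled WT among the 6 of the series. The other 3 come from islets labelled FFA2 global KO and were not compared here. The WT animals, of the C57BL/6J background, were bred from parents with 1 deleted copy of Ffar2 and carry no deletion themselves. According to the labels they ate normal chow and were 10 to 12 weeks old, while the study's supplement gives the mice as male and somewhat older. Islets of 2 mice were pooled for RNA extraction, and no label says whether the 3 libraries came from separate pools, so the spread between them may be partly technical. The study's islet protocol used collagenase digestion, hand selection under a microscope and a night of recovery in culture, so the profile is that of cultured islets and of whatever tissue came with them. Of 22923 gene names in the deposited count table, 22750 were described. The rest were names with several values and 15 genes that the authors' software marked HIDATA, meaning that a locus held too many reads to be processed.

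Pancreatic islets are clusters of endocrine cells set in the exocrine pancreas. Beta cells secrete insulin, alpha cells glucagon, delta cells somatostatin and PP cells pancreatic polypeptide, each from dense-core granules in which prohormones are cut and packed. The surrounding acinar cells make digestive enzymes, ducts carry those enzymes away, and a dense capillary bed and resident macrophages lie within the islet itself. In RNA from whole islets all of these sources are mixed, and fewer cells of a type cannot be told apart from less RNA per cell.

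The libraries held 21283444, 19927346 and 19352339 counts in WT replicates 1 to 3 once the names above were left out. The skipped genes took another 7.02%, 8.21% and 2.27% of the deposited counts. Ins1, Ins2, Gcg, Iapp and Chga, the transcripts that would define beta and alpha cells first, are among the skipped genes and are listed at 0 in all 3 libraries, so their levels are unknown here and every share below is of the remaining counts. Ffar2, the gene deleted in the other genotype, was at 774, 559 and 550 counts, which is 30.9 ± 4.42 CPM (counts scaled to a common library size, SD, n = 3). Between pairs of libraries the Spearman correlation over detected genes was 0.988 to 0.991, given as a description across genes, which are not independent replicates. Between pairs, the chi-square of the counts was 23.0 to 48.3 per gene, so no library looked like another deposited again.

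Levels of different genes were compared as RPKM, reads scaled to transcript length and library size, which the authors give as 1 value pooled over WT. A level per library was obtained by multiplying this value by the library's CPM over the mean CPM of the 3, and neighbours in rank were taken as ordered only where all 3 libraries gave the same order. Of the genes described, 13365 had a mean of at least 1 CPM and were counted as detected, and 5292 had no count in any library. At least 1 RPKM was reached by 11585 genes, 10 RPKM by 5441, 100 RPKM by 566 and 1000 RPKM by 33. The median detected gene was at 7.23 RPKM. The 148 most counted genes held 25% of all counts, 884 genes held 50% and 5687 held 90%. The 100 most counted genes took 21.4%, 23.3% and 19.2% in replicates 1 to 3.

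Among the 20 genes of highest RPKM, 3 encode islet hormones, 3 encode granule proteins or their processing enzymes, 8 encode acinar enzymes or their cofactors and 6 belong to neither group. Ppy, which encodes pancreatic polypeptide, stood first of the genes described at 8819 RPKM and Sst, which encodes somatostatin, second at 5655 RPKM. The acinar members were Prss2 (4879 RPKM), Try4 (3974 RPKM), Clps (3863 RPKM), Try5 (2766 RPKM), Cpa1 (2403 RPKM), Cpb1 (2360.1 RPKM), Cela3b (2231 RPKM) and Ctrl (2202 RPKM). They encode trypsinogens, colipase, carboxypeptidases, an elastase and a chymotrypsin-like protease. The remaining places went to Ubb (3205 RPKM, ubiquitin, counted together with Gm1821), Hspa5 (2331 RPKM, the endoplasmic reticulum chaperone BiP), Eef1a1 (2330.3 RPKM, translation elongation), Mt1 (2142 RPKM, a metal-binding metallothionein), Actg1 (1834 RPKM, gamma actin) and Rpl41 (1788 RPKM, a ribosomal protein). The skipped genes would change this order, and some places also depend on the length used. Computed from the counts and annotated exon lengths, Mt1 was at 875 RPKM. Cel, an acinar gene outside the 20 at 1473 RPKM, was at 1865 RPKM when computed in this way.

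**Figure D1:**
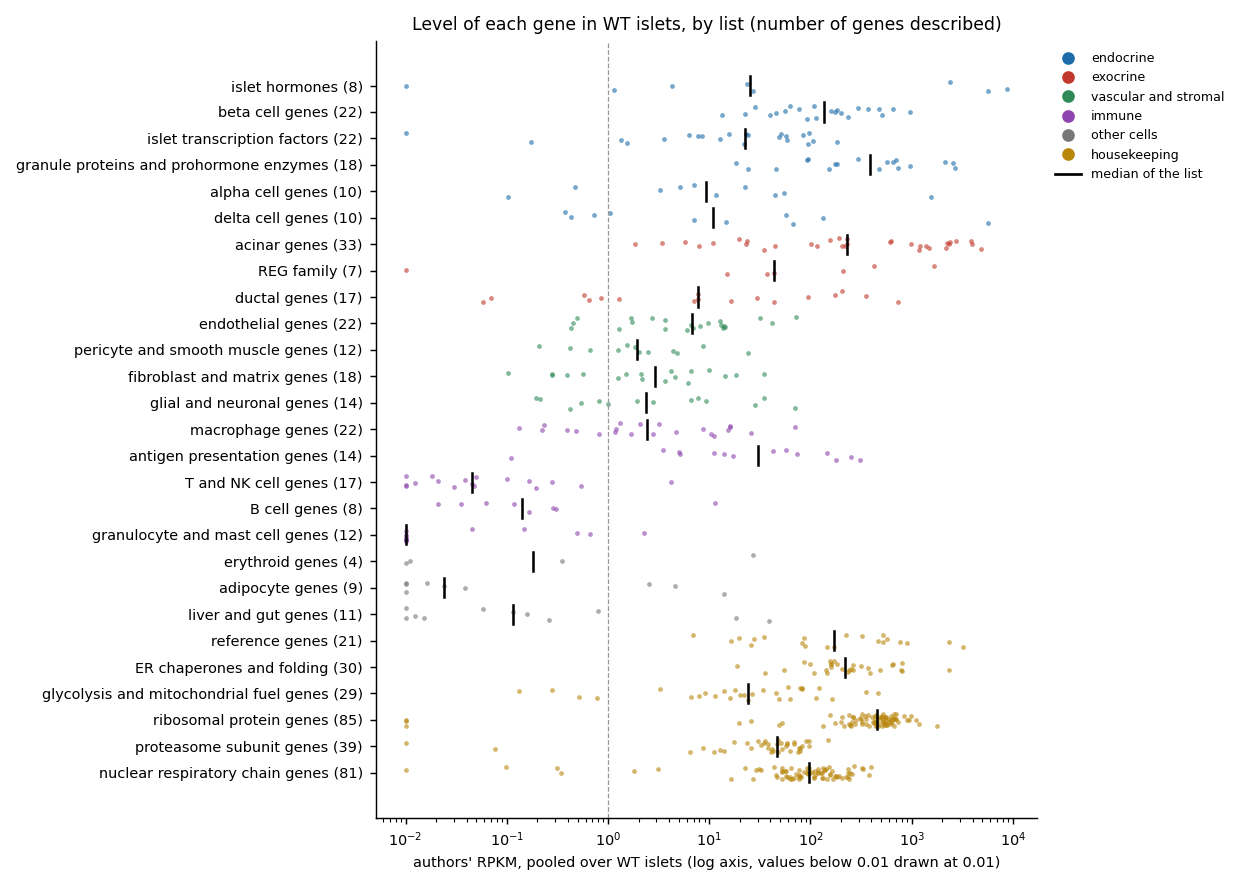
The horizontal axis gives the authors' RPKM pooled over WT on a log scale, and each point is 1 gene of the list named at the left, with the median of the list as a black bar. Granule protein genes (median 386 RPKM), acinar genes (227 RPKM) and ribosomal protein genes (456 RPKM) lie far to the right, and T, B and granulocyte genes lie mostly left of the dashed line at 1 RPKM.

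Hormone transcripts spanned nearly the whole range of the data. Of the 12 genes listed as islet hormones, Ins1, Ins2, Gcg and Iapp were skipped and 8 were described. Ppy was at 9902, 9025 and 7529 RPKM in WT replicates 1 to 3, and Sst was at 4691, 6039.9 and 6233 RPKM. Pyy, whose peptide YY is related to pancreatic polypeptide, was at 2167, 2504 and 2456 RPKM. The ranges of these 3 genes did not overlap, so the order Ppy, Sst, Pyy held in every library. A gap followed, and Npy, which encodes neuropeptide Y of the same peptide family, was at 24.6, 42.7 and 13.7 RPKM. Ghrl, which encodes ghrelin, was at 17.07, 29.96 and 24.47 RPKM. Npy and Ghrl were not ordered, since replicate 3 placed Ghrl above Npy. Cartpt (4.31 RPKM) and Gast (1.15 RPKM), encoding the CART peptide and gastrin, were ordered below them in all 3 libraries, and Nts, encoding neurotensin, was listed at 0. The 8 genes together took 0.855%, 0.893% and 0.853% of counts, so their sum differed little between libraries while Npy and Cartpt each differed more than 2-fold.

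The promoters of the leading hormone genes are shown because Ppy and Sst had the highest RPKM among the genes described. Each is the 250 bases before the gene start in RefSeq on GRCm38.p6, the assembly of the authors' mm10, read 5′ to 3′ on the gene's own strand. Capitals mark the cAMP response element TGACGTCA in Sst and the TATA box TATAAA in Ppy.
Sst (chr16:23890845-23891094, minus strand): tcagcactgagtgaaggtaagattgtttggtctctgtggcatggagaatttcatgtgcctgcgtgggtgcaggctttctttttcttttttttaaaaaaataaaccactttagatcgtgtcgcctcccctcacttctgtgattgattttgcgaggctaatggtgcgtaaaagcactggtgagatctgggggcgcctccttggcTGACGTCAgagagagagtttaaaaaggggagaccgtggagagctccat
Ppy (chr11:102101320-102101569, minus strand): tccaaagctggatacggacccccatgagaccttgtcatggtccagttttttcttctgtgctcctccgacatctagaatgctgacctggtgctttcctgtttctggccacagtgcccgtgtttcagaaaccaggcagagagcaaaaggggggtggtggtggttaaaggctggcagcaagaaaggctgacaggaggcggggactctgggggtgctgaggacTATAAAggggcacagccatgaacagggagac
Searched on both strands, TGACGTCA was found in 2 of the 8 hormone promoters and in 2.09% of 15371 promoters of the same length, and TATAAA in 2 of 8 and in 11.9%. These and all motif counts below were picked from 22 motifs of 5 to 8 letters after their counts were seen, and a match describes letters only.

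Genes of the beta cell were abundant. All 22 described were detected, 13 of them at 100 RPKM or more, with a median of 136 RPKM. G6pc2, which encodes the islet glucose-6-phosphatase, led at 968 RPKM and was at 849, 1122 and 934 RPKM in replicates 1 to 3. Slc30a8, the zinc transporter of insulin granules, was at 490.4, 453 and 486 RPKM. Ucn3, a peptide of mature beta cells, was at 412, 362 and 336 RPKM. Slc2a2, the glucose transporter GLUT2, was at 229, 223 and 248 RPKM. No gene of the 22 differed 2-fold between the highest and lowest library, a share near the 6.11% of all detected genes. The median CV of the list was 9.22%, against 10.4% over all detected genes. Ero1lb (648 RPKM, oxidative protein folding) and Tmem27 (506 RPKM) were next in the list. The subunits of the ATP-sensitive potassium channel, Abcc8 and Kcnj11, were at 198 and 56.3 RPKM, and Glp1r, the GLP-1 receptor, at 108 RPKM. Prlr, the prolactin receptor, was at 502, 309.9 and 307 CPM, and Ffar1, a receptor for long chain fatty acids, at 28.5, 16.3 and 17.9 CPM. Replicate 1 was the high library for both.

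Granule proteins and prohormone enzymes formed the list of highest median among the endocrine lists, at 386 RPKM, with 13 of 18 genes at 100 RPKM or more. Scg2, secretogranin II, was at 2848, 2457 and 2798 RPKM, and Cpe, the carboxypeptidase that trims prohormones, at 2676, 2354 and 2647 RPKM. Resp18, a granule protein of endocrine cells, was at 1869, 2293 and 2176 RPKM. Pcsk2, the convertase of proglucagon and proinsulin, was at 964 RPKM, and Pcsk1, the other convertase of proinsulin, at 185 RPKM. The Pcsk2 libraries (941, 956 and 994 RPKM) all lay above the Pcsk1 libraries (208, 167 and 179 RPKM). Chgb, chromogranin B, was at 633, 649.8 and 661 RPKM. The list took 3.87%, 3.62% and 4.02% of counts, and its median CV was 7.73%. All endocrine genes together took 6.67%, 6.38% and 6.79%, a mean of 6.61% ± 0.207 (SD, n = 3).

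Transcription factors of the islet lay lower, with a median of 22.7 RPKM over 22 genes, of which 20 were detected. Mafa, an activator of the insulin gene in adult beta cells, was at 189, 194 and 168 RPKM and stood above all others in every library. Computed from the counts and annotated exon lengths, however, Mafa was at 76.9 RPKM and Insm1 at 93.6 RPKM. The first place of Mafa therefore depends on the length used. Pax6 (105 RPKM), Neurod1 (95.7 RPKM), Nkx6-1 (94.0 RPKM) and Insm1 (84.5 RPKM) followed, all factors of endocrine or beta cell identity. Pax6 exceeded Neurod1 in 3 of 3 libraries, whereas Neurod1 exceeded Nkx6-1 in 2 of 3 and this pair was not ordered. Pdx1, required for pancreas formation and beta cell function, was at 54.1 to 66.5 RPKM over the libraries, overlapping Nkx2-2 at 50.4 to 62.8 RPKM. Mlxipl, the glucose-responsive factor ChREBP, was at 51.4 RPKM and Isl1 at 48.9 RPKM. Rfx6 (23.9 RPKM), Foxa2 (23.2 RPKM) and St18 (22.3 RPKM) could not be ordered among themselves. Hnf4a, a hepatocyte nuclear factor, was at 15.8 RPKM. Neurog3, the factor of endocrine progenitors, was at 1.504, 1.539 and 1.575 RPKM, Foxa1 at 0.175 RPKM, and Pax4, another factor of endocrine development, had no count. Of the 21 neighbouring pairs, 14 kept their order in all 3 libraries.

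**Figure D2:**
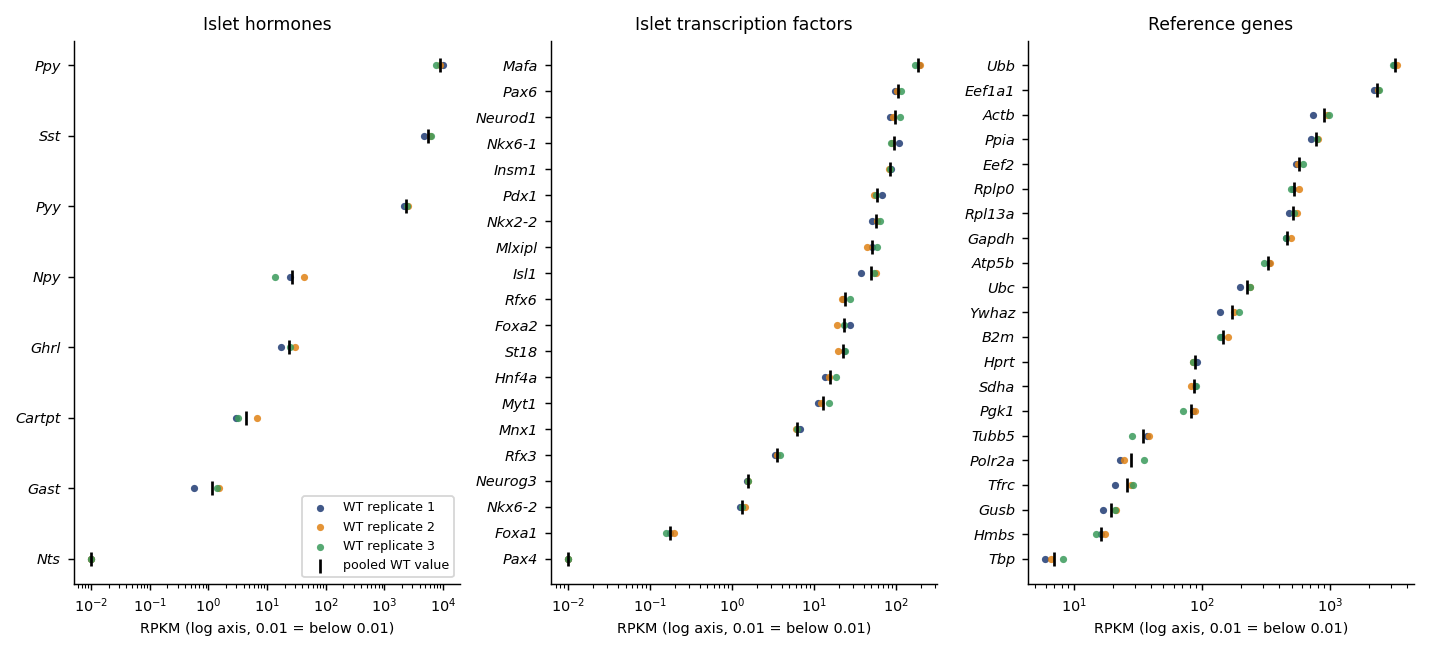
Each row is a gene and the horizontal axis its RPKM on a log scale, with 1 coloured point per WT library and a black tick for the authors' pooled value, for hormones, 20 of the 22 transcription factors and reference genes. Points of a gene mostly overlap, as for Insm1, while Npy spreads over 13.7 to 42.7 RPKM.

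Markers of the other endocrine cells were mostly detected. Of 10 alpha cell genes described, 8 were detected, and the median of the 10 was 9.30 RPKM. The lowest were Pou3f4 (0.467 RPKM) and Loxl4 (0.102 RPKM). In the alpha cell list, Ttr, which encodes transthyretin, was at 1543 RPKM, Gc at 54.9 RPKM and Slc7a2, an amino acid transporter, at 44.8 RPKM. Irx2, a transcription factor of alpha cells, was lower, at 13.9, 17.6 and 16.1 CPM (5.14 RPKM). In the delta cell list, Rbp4 (134 RPKM), Pdyn (67.0 RPKM) and Sstr3 (56.7 RPKM) followed Sst, with Hhex, the delta cell factor, at 7.12 RPKM and Ghsr, the ghrelin receptor, at 1.04 RPKM. Pdyn, which encodes prodynorphin, was at 75.3, 52.9 and 34.1 CPM and was high in replicate 1 and low in replicate 3, the reverse of Sst at 2912, 3749 and 3868 CPM. Of 8 detected alpha cell genes, 7 were lowest in replicate 1, against 35.1% of all detected genes, with a median of -0.20 on the log2 scale relative to the mean of the 3 libraries.

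Acinar genes were among the most abundant transcripts and differed widely between libraries. The 33 genes described were all detected, 23 of them at 100 RPKM or more, with a median of 227 RPKM. Prss2, a trypsinogen, was at 5607, 6494 and 1713 CPM in WT replicates 1 to 3. Cpa1, which encodes carboxypeptidase A, was at 5889.6, 6995 and 1744 CPM, and Clps at 2078, 2554 and 643 CPM. Cel, the bile salt-activated lipase, was at 4851, 5560.2 and 1359.8 CPM. For each of these genes replicate 3 lay far below the other two. It was the lowest library for 33 of the 33 acinar genes, against 31.1% of all detected genes, and at least 2-fold below both others for 29, against 0.786% of all detected genes. In all, 105 genes met this rule. Ptf1a, the transcription factor of acinar cells, was low in level and followed the same pattern at 2.79, 5.46 and 1.44 CPM. Dmbt1 (1623, 1508 and 948 CPM), Gatm (71.9, 90.4 and 51.7 CPM) and Bhlha15 (105, 105 and 62.7 CPM), the last a factor of secretory cells, differed less. The list took 4.83%, 5.75% and 1.54% of counts, a mean of 4.04% ± 2.21 (SD, n = 3). Without replicate 3 the median level was 294 RPKM.

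The acinar share would differ with the skipped genes, of which 8 are listed acinar genes with counts and others are islet genes listed at 0. Amy2a2 to Amy2a5, Cela1, Cela2a, Ctrb1 and Pnlip, encoding amylase, elastases, chymotrypsinogen and pancreatic lipase, have counts in WT. With all skipped genes included as listed, the islet ones at 0, the share was 11.5%, 13.5% and 3.78%. The amylase copies Amy2a2 to Amy2a5 hold nearly equal counts and may share reads, so this share may be too high. Trypsinogen genes such as Try4, Try5 and Prss2 are near copies and may share reads. Without 6 of them, a choice made after seeing the data, the share was 3.57%, 4.15% and 1.12%, with the same order of libraries.

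The promoters of 4 acinar genes are shown, from a list whose transcripts mostly moved together across the libraries. All 4 hold CACCTG, so they do not show how often the motif occurs among acinar promoters. Capitals mark CACCTG, an E-box of the kind read by PTF1A with its partners, the TC-rich box TGGGAA or its reverse complement, and TATAAA in Prss2. Of these 4 promoters, Prss2 and Ctrl hold both motifs, apart from each other in the window.
Prss2 (chr6:41521526-41521775, plus strand): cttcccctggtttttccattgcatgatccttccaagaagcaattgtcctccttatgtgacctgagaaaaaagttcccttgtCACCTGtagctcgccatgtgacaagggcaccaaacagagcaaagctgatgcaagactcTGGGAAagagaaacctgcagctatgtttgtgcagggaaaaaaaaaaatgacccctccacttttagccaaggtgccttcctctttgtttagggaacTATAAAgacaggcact
Ctrl (chr8:105933863-105934112, minus strand): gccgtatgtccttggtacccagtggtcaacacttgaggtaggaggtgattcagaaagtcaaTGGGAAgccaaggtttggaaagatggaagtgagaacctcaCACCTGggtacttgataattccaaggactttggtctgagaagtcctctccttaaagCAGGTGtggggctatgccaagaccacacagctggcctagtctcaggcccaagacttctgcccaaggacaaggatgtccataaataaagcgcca
Cela3b (chr4:137430521-137430770, minus strand): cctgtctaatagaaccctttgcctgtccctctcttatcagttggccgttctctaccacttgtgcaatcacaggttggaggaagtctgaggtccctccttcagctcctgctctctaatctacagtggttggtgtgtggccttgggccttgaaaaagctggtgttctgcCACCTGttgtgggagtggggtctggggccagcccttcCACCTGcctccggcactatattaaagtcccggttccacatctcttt
Cpb1 (chr3:20275734-20275983, minus strand): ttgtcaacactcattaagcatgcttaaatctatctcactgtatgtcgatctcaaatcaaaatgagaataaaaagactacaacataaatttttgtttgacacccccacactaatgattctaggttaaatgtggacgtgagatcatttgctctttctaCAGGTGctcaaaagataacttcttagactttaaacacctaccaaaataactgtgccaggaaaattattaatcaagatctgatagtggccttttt
CACCTG was found on either strand in 15 of the 24 acinar promoters with a RefSeq entry (62.5%) and in 16.5% of all 15371 promoters. TGGGAA was found in 13 of 24 (54.2%) and in 21.1% of all. A longer form of this box, TTTCCCA, was found in only 3 of 24 (12.5%) and in 6.89% of all. TATAAA was found in 7 of 24 and in 11.9% of all.

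**Figure D3:**
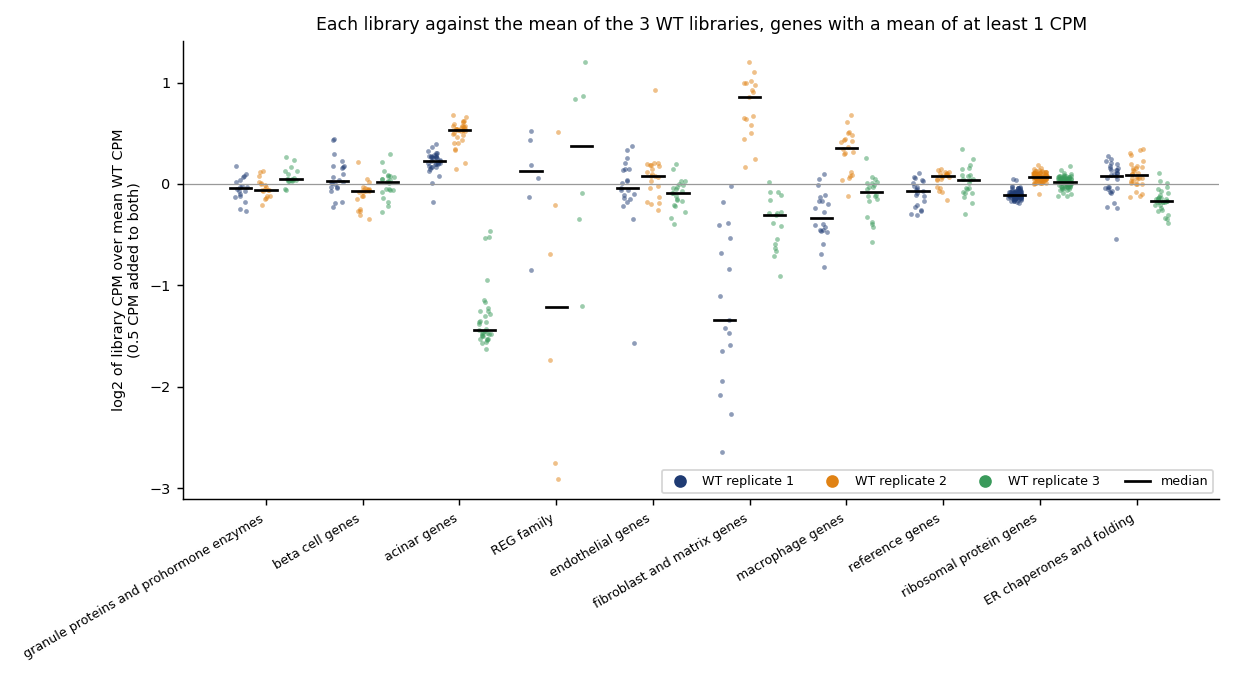
The vertical axis gives the log2 ratio of each library to the mean of the 3 WT libraries, with 0.5 CPM added to both, for detected genes of 10 lists, 1 point per gene and library and black bars at medians. Acinar genes of replicate 3 lie around a median of -1.44, fibroblast and matrix genes of replicate 1 around -1.34, and granule, beta cell and ribosomal protein genes stay near 0.

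The REG family, secreted lectins that acinar cells and stressed islets can make, did not follow 1 pattern. Reg1 was at 1649.5, 2063 and 631 CPM, low in replicate 3 like the acinar genes. Reg3b was at 166, 54.3 and 325 CPM, Reg3a at 37.3, 4.34 and 65.5 CPM and Reg3g at 6.89, 1.48 and 30.1 CPM, so that replicate 3 was high and replicate 2 low for all 3. Reg2 was at 441, 190.0 and 287 CPM and was high in replicate 1. Reg4 had no count.

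Of the ductal genes, Krt8 (729 RPKM), Krt18 (354 RPKM), Cldn4 (203 RPKM) and Krt7 (173 RPKM) were abundant, but these keratins and the claudin are not limited to ducts. The defining ductal genes were lower, with Krt19 at 7.77 RPKM, Sox9 at 0.862 RPKM and Cftr, the chloride channel, at 0.0697 RPKM. Krt19 was at 7.91, 8.78 and 23.5 CPM and was high in replicate 3 alone. Tff3, which encodes a trefoil peptide of intestinal goblet cells, was at 3, 6 and 426 counts. A search for similar genes, made after these values were seen, found Spink4 at 4, 3 and 143 counts and Fcgbp, the IgG Fc binding protein of mucus, at 60, 16 and 754 counts, both goblet cell genes. Agr2, of mucin folding, was at 0, 0 and 0.975 CPM. Clca1 (1.07, 0.510 and 1.18 CPM) and Spdef (1.95, 2.04 and 0.667 CPM), also goblet cell genes, did not share this difference. Fabp2 and Fabp1, which mark intestinal absorptive cells, were at or near 0 in all 3 libraries. So was Cdx2, a transcription factor of the intestinal epithelium, at 0, 0 and 0.103 CPM.

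Endothelial genes, which mark the vessel lining, were moderate in level. Of 22, 21 were detected, with a median of 6.70 RPKM. Their median CV over the libraries was 12.95%, against 10.4% over all detected genes, and 1 of the 21 differed 2-fold between libraries, against 6.11% of all. Plvap, a protein of fenestrated endothelium, led at 65.4, 81.7 and 68.7 RPKM, followed by Esm1 (41.2 RPKM) and Emcn (32.0 RPKM). Kdr, the receptor of VEGF, was at 13.7, 15.0 and 14.2 RPKM, Pecam1 at 14.4, 15.5 and 12.1 RPKM and Cdh5, VE-cadherin, at 10.4, 7.06 and 6.60 RPKM. The exception was Vwf, von Willebrand factor of larger vessels, at 1.68, 11.8 and 4.41 CPM, high in replicate 2. The ligand gene Vegfa was at 93.3, 93.3 and 93.4 RPKM. The list took 0.0975%, 0.0983% and 0.0917% of counts. Pericyte and smooth muscle genes had a median of 1.94 RPKM, with Rgs5 at 24.3 RPKM and Pdgfrb at 1.54 RPKM.

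Fibroblast and matrix genes were low and also differed widely between libraries. Sparc, a matrix protein, led at 34.5 RPKM. All 17 detected were highest in replicate 2, against 29.6% of all detected genes, 15 were lowest in replicate 1, against 35.1%, and 14 differed at least 2-fold, against 6.11%. Col1a1, a chain of fibrillar collagen, was at 3.26, 53.7 and 12.0 CPM, Col3a1 at 11.5, 109 and 30.5 CPM and Dcn, decorin, at 2.61, 29.0 and 11.7 CPM. Replicate 2 was the high library each time. Col4a1, a chain of basement membrane collagen that endothelium also makes, was at 169.8, 193 and 154 CPM and did not share the size of the difference. The list median was 2.89 RPKM with all 3 libraries and 1.22 RPKM without replicate 2. Pdgfra, a marker of fibroblasts, was at 0.104 RPKM. Sox10, a marker of glia, was at 0.212 RPKM, while Snap25 (70.2 RPKM), Uchl1 (34.9 RPKM) and Th (28.5 RPKM), listed as neuronal, are also made by endocrine cells.

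Among the leukocyte lists, the macrophage genes had the highest median. Of 22 genes, 20 were detected, at a median of 2.41 RPKM. C1qa, a subunit of complement C1q, was at 63.6, 73.5 and 72.1 RPKM, Ctss, cathepsin S, at 19.5, 32.1 and 25.4 RPKM and C1qb at 11.9, 20.8 and 15.5 RPKM. Csf1r, the receptor on which macrophages depend, was at 2.39, 3.97 and 3.23 RPKM, Cd68 at 2.76 RPKM and Emr1, which encodes the macrophage antigen F4/80, at 1.67 RPKM. Replicate 2 was highest for 17 of the 20, against 29.6% of all detected genes. Antigen presentation genes, only some of which endocrine cells also carry, had a median of 30.1 RPKM. H2-K1 was at 307 RPKM, H2-D1 at 249 RPKM and Cd74 (counted together with Mir5107) at 179 RPKM. The median was 19.6 RPKM with annotated exon lengths.

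Lymphocyte and granulocyte genes were near or at 0. Without replicate 2 the medians of the T and NK cell, B cell and granulocyte lists were 0.0131 RPKM, 0 and 0, against 0.0456, 0.142 and 0.00472 RPKM with it. Of 17 T and NK cell genes 2 were detected, Thy1, which fibroblasts and neurons also make, and Lck, and Cd3e, of the T cell receptor complex, had 0, 3 and 1 counts. Of 8 B cell genes only Cd79a was detected, at 11.9, 15.5 and 29.1 CPM. The others of that list were far lower, so Cd79a did not run with its list. Ms4a1 (0, 26 and 0 counts), Cr2 (0, 31 and 0 counts), Pax5 and Blk had counts in replicate 2 alone. Of 12 granulocyte and mast cell genes 6 had no count and only Kit was detected, at 10.3, 12.9 and 24.6 CPM. S100a8 and S100a9 were at 0.490 and 0.666 RPKM and Cpa3 at 0.00944 RPKM. Hbb-b2, a beta globin counted together with Hbb-b1, was at 8.56, 26.7 and 16.3 CPM, while Alas2, of heme synthesis in red cell precursors, was at 0.353 RPKM. Adipoq and Plin1, which define adipocytes, had no count, and Alb, albumin of the liver, was at 0.799 RPKM.

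Reference genes, often used to normalise expression, did not share 1 level or 1 degree of steadiness. Their 21 members ran from Ubb at 3205 RPKM to Tbp at 6.93 RPKM. Of 20 neighbouring pairs, 13 kept their order in all 3 libraries. Hprt was at 152, 141 and 141 CPM and Gapdh at 683, 749.5 and 684 CPM. Actb, by contrast, was at 1733, 2217 and 2315 CPM, Ywhaz at 599, 776 and 840.2 CPM and Polr2a at 184, 197 and 281 CPM, with replicate 1 lowest for each. None of the 21 reached a 2-fold difference, a share near the 6.11% of all detected genes. Ribosomal protein genes had a median of 456 RPKM and a median CV of 6.96%, with Rps27 (1186 RPKM) and Rpl10 (1108 RPKM) next to Rpl41. Replicate 1 was lowest for 74 of 82 of them, against 35.1% of all detected genes, but the median was only -0.11 on the log2 scale. The median of this list was 177 RPKM when computed from the counts and annotated exon lengths, so its place among the lists depends on the length used.

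Genes of the secretory pathway were high. All 30 genes of endoplasmic reticulum chaperones and folding were detected, 25 at 100 RPKM or more, at a median of 220 RPKM. Hspa5 was at 1986, 2719 and 2288 RPKM, Herpud1, of the degradation of misfolded proteins, at 551, 994 and 867 RPKM, and Hsp90b1, the chaperone GRP94, at 761, 813 and 815 RPKM. Replicate 3 was lowest for 22 of the 30, against 31.1% of all detected genes, with a median of -0.17 on the log2 scale. Hspa5, Herpud1 and Hsp90b1 did not follow this and were among the 7 genes lowest in replicate 1. Replicate 3 also held the least acinar RNA. Whether acinar content has a part in the lower levels of replicate 3 was not tested. Of the fuel genes, Gapdh (465 RPKM), Aldoa (354 RPKM) and Mdh1 (162 RPKM) led. With annotated exon lengths Gapdh was at 171 RPKM, Aldoa at 179 RPKM and Mdh1 at 159 RPKM, so their order depends on the length used. Of genes known for their low level in beta cells, Ldha, lactate dehydrogenase A, was at 14.0 RPKM, Hk1 at 3.28 RPKM, Slc16a1, the monocarboxylate transporter MCT1, at 0.776 RPKM and Hk2 at 0.280 RPKM. Nuclear respiratory chain genes had a median of 96.4 RPKM and proteasome genes one of 47.0 RPKM. These medians were 42.7 and 27.1 RPKM with annotated exon lengths.

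Over all detected genes the median CV of the 3 libraries was 10.4%, with quartiles of 6.21% and 17.1%, and counting alone would give a median of 4.30%. The biological coefficient of variation of edgeR, a common value for the spread beyond counting, was 15.2%. Of 4515 genes with a mean of at least 50 CPM, the 10 of largest CV (58.1% to 103%) were Ctrl, Gp2, Try4, Try10 and Pdia2, which are acinar genes or are made in acinar cells, and Lars2, Dbp, Reg3b, Vip and Col3a1. Replicate 3 was lowest for 7 of these 10. Vip, a neuropeptide, was at 39.0, 109.5 and 23.1 CPM, high in replicate 2. Lars2, the mitochondrial leucyl-tRNA synthetase, was at 2343, 1891 and 556 CPM. Rn45s, the ribosomal RNA precursor, was chosen after its values were seen and was at 3067, 2497 and 1623 CPM, again with replicate 3 lowest. The 10 of smallest CV were Vegfa, Tnfaip1, Vipar, Celsr3, Fkbp15, Ccnd2, Xrcc5, Ptk2, Ube2e3 and Aph1a. Their CVs (0.0390% to 0.405%) lay under what counting alone gives (0.712% to 3.10%), so they cannot be ranked by steadiness. Ccnd2, cyclin D2 of the beta cell cycle, was at 973, 978 and 978 CPM.

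**Figure D4:**
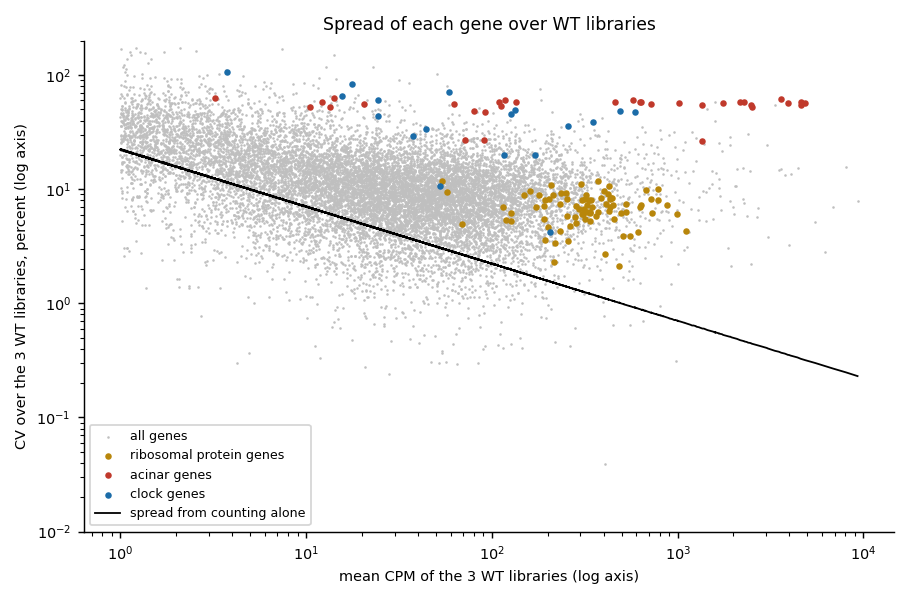
Each point is a detected gene, with its mean CPM over the 3 WT libraries on the horizontal log axis, its CV in percent on the vertical log axis, and a line for the CV that counting alone gives. Acinar genes mostly form a band near their median CV of 56.8%, and ribosomal protein genes lie near 6.96%. Clock genes lie high (median 45.0%), but that list was chosen after its values were seen.

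Genes of the circadian clock were picked out after their values were seen. The clock is a loop in which ARNTL and CLOCK or NPAS2 activate Per, Cry, Nr1d and Dbp genes, and the Per, Cry and Nr1d products repress the loop in turn. Arntl was at 34.4, 10.9 and 7.49 CPM and Npas2 at 8.38, 1.43 and 1.44 CPM, high in replicate 1. Dbp was at 17.2, 58.1 and 102 CPM, Per3 at 9.36, 25.2 and 39.0 CPM, Tef at 65.4, 138 and 197 CPM and Nr1d1 at 199.8, 388 and 465 CPM, low in replicate 1 and high in replicate 3. Per1 was at 212, 632 and 616 CPM. Cry1 (47.1, 51.9 and 58.1 CPM) and Nfil3 (204, 217 and 200.1 CPM) differed little. Of the 18 genes, 12 differed at least 2-fold and 13 were lowest in replicate 1, where the shares of all detected genes are 6.11% and 35.1%, and nothing is read from these counts because the list was chosen with the values known. In replicate 1, Arntl, Npas2 and Clock lay above the mean of the libraries and all Per, Cry, Nr1d and Dbp genes below it. No label gives the time of day at which islets were taken.

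The promoters of Per1 and Tef are shown because the E-box CACGTG, in capitals, is the element that the clock activators are known to bind.
Per1 (chr11:69098699-69098948, plus strand): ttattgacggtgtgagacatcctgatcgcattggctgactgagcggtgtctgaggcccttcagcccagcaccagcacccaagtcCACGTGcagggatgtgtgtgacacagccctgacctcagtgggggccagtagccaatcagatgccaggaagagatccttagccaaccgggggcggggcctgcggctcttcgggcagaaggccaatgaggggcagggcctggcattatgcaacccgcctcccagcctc
Tef (chr15:81802423-81802672, plus strand): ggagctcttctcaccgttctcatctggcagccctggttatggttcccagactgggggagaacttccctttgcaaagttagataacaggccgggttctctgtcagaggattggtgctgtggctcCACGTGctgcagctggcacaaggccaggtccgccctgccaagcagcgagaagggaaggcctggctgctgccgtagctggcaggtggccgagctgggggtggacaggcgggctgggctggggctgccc
CACGTG was found in 4 of the 14 clock gene promoters with a RefSeq entry (28.6%) and in 6.99% of all promoters.

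**Figure D5:**
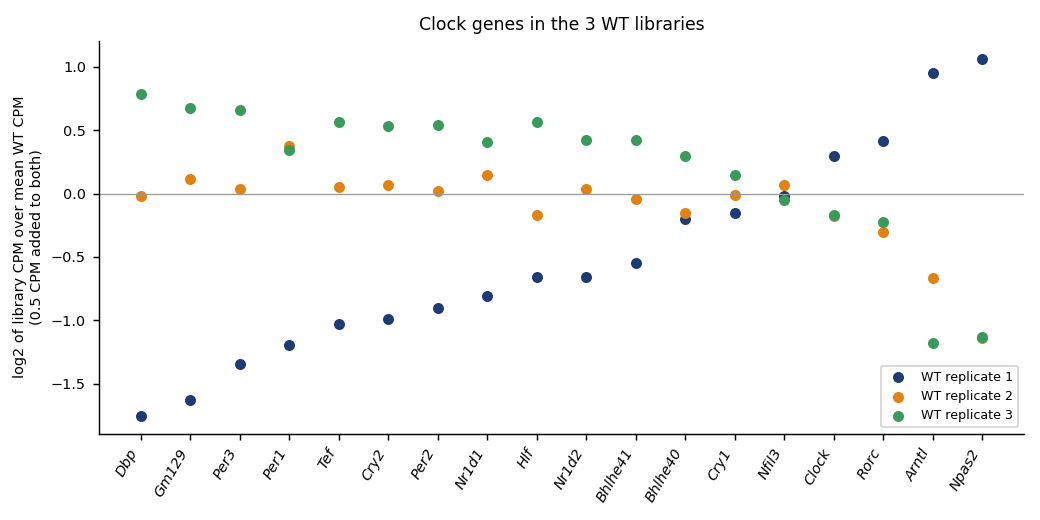
The vertical axis gives the log2 ratio of each WT library to the mean of the 3, with 0.5 CPM added to both, for 18 clock genes ordered by replicate 1. Replicate 1 runs from -1.75 for Dbp to 1.06 for Npas2, and replicate 3 lies on the other side of 0 for every gene but Nfil3.

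Immediate early genes, which cells switch on within minutes of a stimulus and whose list was also drawn up after values were seen, were plainly present. All 18 were detected and 8 were at 100 RPKM or more. Fosb was at 451, 737 and 675 RPKM, Nr4a1 at 503 RPKM, Jund at 457 RPKM, Junb at 367 RPKM, Fos at 352 RPKM and Jun at 300.3 RPKM. Replicate 1 was lowest for 13 of the 18, against 35.1% of all detected genes, and highest for 4, against 36.1%. In replicate 1 the median was -0.66 on the log2 scale, and 10 of the 18 differed 2-fold, against 6.11%. Fos (1301, 788 and 764 CPM) and Egr1 (1212, 766 and 729 CPM) were high in replicate 1, whereas Nr4a1 (866, 2028 and 1899 CPM) and Npas4 (215, 424 and 538 CPM) were low there. The 18 genes took 1.06%, 1.32% and 1.26% of counts.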

How the data were processed

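The authors aligned reads with TopHat (2.0.8b) and ran Cufflinks and Cuffdiff (2.1.1) on mm10, and deposited a table of raw estimated counts, in which 127 to 213 values of a WT library were not whole. The authors also deposited RPKM as 1 pooled value for WT with no error, and how skipped genes enter its denominator is not given in the sources used here. The way reads were counted, strand and multiple matches are also not given, so paralogs, overlapping and antisense genes are uncertain. Counts were rounded, scaled by TMM (edgeR 4.0.16, R 4.3.3; factors 0.983 to 1.01) to CPM, and CV is SD over mean. With 1 group no test was made. The 27 gene lists, named genes and alternatives were chosen with earlier results of these data known. Named genes are the 20 genes of highest RPKM with at least 10 counts in every library that are neither mitochondrially encoded nor small RNA genes, the 3 highest and the defining genes of each list, all hormones, reference genes and islet transcription factors, and the 10 largest and smallest CVs from 50 CPM. Any other gene was named with its values known. A few genes covered by this rule are not reported here. Promoters were matched by symbol for 15371 genes, the RefSeq start lying within 50 bases of the authors' start for 89.1%. Columns of the other genotype and of the authors' comparison were not used. DESeq2 1.42.0 gave size factors as an alternative. The scaling and spread steps were tested on simulated data. Depth was 19352339 to 21283444 counts.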

Additional observations from a re-analysis of the deposited data

Results flagged for a closer look

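Signal outside the genes described was looked for in the values left out. Genes that the authors' software skipped held 2.27% of the deposited counts in the WT library with the smallest share (replicate 3) and 8.21% in that with the largest (replicate 2). This was singled out because no comparison of levels above uses these counts. Of the 15 skipped genes, 6 are listed at 0 in all WT libraries and 9 have counts, 8 of them acinar. Gene names with several values held at most 0.144% of a WT library's deposited counts and were singled out for the same reason. With 3 libraries, no search for single outlying samples was made.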

How the results depend on the processing

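Kept as listed, the skipped genes gave a mean acinar share of 9.597%, an endocrine share of 6.23% and a share of the 100 most counted genes of 25.2%, in place of 4.04%, 6.61% and 21.3%. Their counts come from 8 acinar genes and Casp9, and the insulin, glucagon, amylin and chromogranin A genes enter at 0. The amylase copies among the acinar genes may share reads. Without a filter on low values the median CV was 13.5%. RPKM from counts and annotated exon lengths, which 90.3% of detected genes with an RPKM have, gave medians of 42.5 for endocrine and 71.3 for housekeeping genes in place of 53.1 and 134, and the cause was not tested. On that scale 8 of 28 medians (27 lists and the class of other cells) moved by over 1 SD of the libraries, 7 lower and 1 higher. With 1 library left out, the median CV ran from 7.63% to 9.13%, the biological coefficient of variation from 14.1% to 16.1% and the endocrine median from 50.2 to 54.5 RPKM. Leaving out replicate 2 lowered the immune class median to 0.298 RPKM, in place of 0.482. Other alternatives that keep all libraries, 36 in number, moved the main values by less than the libraries' spread, or counts by under 1.5-fold. For the median CV and the biological coefficient of variation, the spread used was the SD of the values with 1 library left out. Thresholds of 0.5 and 5 CPM gave 14167 and 11019 detected genes. Counts are precise for abundant genes, while genes under about 1 CPM rest on few reads, and RPKM pooled over WT has no error of its own. Over TMM, total-count, DESeq2 and acinar-free scaling, the number of acinar genes lowest in replicate 3 stayed at 33 of 33 and that of fibroblast and matrix genes highest in replicate 2 at 17 of 17. No paired analysis was possible because only 1 genotype is described and no result comes from a test.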

Other observations

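Several values bear on how the deposited numbers can be read. Amy2a2, Amy2a3, Amy2a4 and Amy2a5, tandem copies of the pancreatic amylase gene, were left out, and their listed counts in replicate 1 were 183697, 183741, 184289 and 183896, so that the 4 copies hold nearly equal numbers. Mir703 and Mir1938 are listed at 806 and 621 RPKM, although Mir703 had 6, 10 and 3 counts and Mir1938 had 0, 2 and 1 counts in replicates 1 to 3, so RPKM of very short genes does not follow their counts. For 15.5% of detected genes with an exon length, the authors' RPKM and one computed from counts and exon length differed more than 2-fold, although the Spearman correlation across genes was 0.951.

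Other gene groups, all picked after their values were seen, also differed between libraries. Of 11 detected proliferation genes, 9 were highest in replicate 1, against 36.1% of all detected genes, among them Top2a, the topoisomerase of dividing cells, at 11.5, 5.97 and 3.59 CPM and Mki67 at 10.1, 6.38 and 5.59 CPM, whereas Pcna was lowest there at 91.3, 136 and 131 CPM. Ifit1, an interferon-induced gene, was at 53.1, 17.6 and 24.2 CPM and Rsad2 at 101, 51.8 and 58.5 CPM. Fgf21, a stress-induced hormone that acinar cells make, was at 9.03, 24.0 and 2.21 CPM. Mt1 was at 776, 1165 and 1332 CPM and Mt2 at 582, 839 and 1029 CPM, both lowest in replicate 1.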
